A study of Mus musculus with 12 samples.

Results

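The S100 genes encode small calcium-binding proteins, and 8 of them were followed here in mouse liver: S100a1, S100a4, S100a6, S100a8, S100a9, S100a11, S100a13 and S100a16. They were taken by gene symbol from a whole-liver RNA-seq table of 16703 genes and from a table of 16273 genes for liver sinusoidal endothelial cells (LSEC), and all 8 were present in both. C57BL/6 mice on a diet that induces nonalcoholic steatohepatitis (NASH) were compared with mice on chow, with 3 libraries in each of 4 groups: NASH liver, chow liver, NASH LSEC and chow LSEC. The labels give 36 weeks of NASH diet in a protocol attached to every sample, chow included. They give no age, sex or animal number, so p-values measure the spread between these libraries, which may be technical in part. Whole liver holds hepatocytes with every other liver cell type, and LSEC were collected with magnetic beads against CD146 from cells already depleted of CD11b-positive cells, a class that includes neutrophils and monocytes.

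S100 proteins bind calcium through a pair of EF hands, pair up as dimers, and then attach to target proteins such as annexins and myosin. S100a8 and S100a9 are made in bulk by neutrophils and monocytes, form calprotectin, which withholds zinc and manganese from microbes, and are ligands of Tlr4 and of Ager (RAGE) when released. S100a4 is made by fibroblasts and many leukocytes, and S100a6 and S100a11 by bile duct epithelium, mesenchymal cells and other cells. S100a1 is best known from heart muscle, where it acts on calcium handling, S100a13 takes part in the release of Fgf1 without a signal peptide, and S100a16 is expressed in many tissues.

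In whole liver, 5 of the 8 genes rose on the NASH diet and none fell. The 5 were both neutrophil genes, S100a8 and S100a9, and S100a4, S100a6 and S100a11, grouped here with stroma and epithelium. S100a4 is made by many leukocytes too, so that grouping is loose. S100a11 had the largest fold change of the 8, 11.5-fold. S100a1, S100a13 and S100a16 did not pass the test. In LSEC none of the 8 passed the same test. A gene was called at an adjusted p under 0.05 from limma on log2(normalized reads + 1), with Benjamini-Hochberg adjustment over all genes of a table. By that rule 25.0% of all liver genes were called higher on the NASH diet, 21.0% lower and 46.0% in all, so a call in liver is common. In LSEC 8.11% of genes were called, 5.24% higher and 2.86% lower.

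Liver libraries held 47000197 to 57397720 recovered reads, and LSEC libraries 18527017 to 19402863. Endothelial markers summed to 404610 to 464882 normalized reads in NASH LSEC and 688669 to 737911 in chow LSEC. The LSEC markers Stab2 (named after its values were seen), Clec4g and Dnase1l3 had at least 25860 normalized reads in every LSEC library. Lyve1, another LSEC marker, had 14903, 26118 and 19957 normalized reads in NASH LSEC and 7063, 6872 and 8729 in chow LSEC. The hepatocyte gene Alb had 27790, 34837 and 54247 normalized reads in NASH LSEC and 11003, 61571 and 5800 in chow LSEC, so transcripts of hepatocytes were present in the LSEC libraries, most in the second chow library. The 2 tables were normalized separately, and levels were not tested across them.

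The 8 genes lie on chromosome 3 of mm10 (GENCODE M21), in the order S100a1, S100a13, S100a16, S100a4, S100a6, S100a8, S100a9 and S100a11. S100a11 sits apart, 2824766 bases beyond S100a9 and next to S100a10. S100a1, at chr3:90511034-90514392 on the minus strand, and S100a13, at chr3:90514435-90524581 on the plus strand, point away from each other with 42 bases between them. S100a8, at chr3:90668978-90670035 on the plus strand, and S100a9, at chr3:90692632-90695721 on the minus strand, point towards each other. S100a4 lies at chr3:90603771-90606045, S100a6 at chr3:90612882-90624181, S100a16 at chr3:90537254-90543151 and S100a11 at chr3:93520488-93526287, all on the plus strand. The annotation also has Gm42674 over 2115 bases of S100a4 on the same strand, and how reads were divided between the pair is not stated, so the S100a4 values carry that uncertainty.

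The sequences before the starts of 4 genes that rose in liver are shown because S100a8 and S100a9 moved alike and S100a11 moved most. The stretch between S100a1 and S100a13 is shown because that pair did not rise and shares it. Each is read 5′ to 3′ from RefSeq (GRCm38.p6), on the gene's own strand, and the first 4 are the 250 bases before the RefSeq start. That start is 90669071 for S100a8 and 93520496 for S100a11, while GENCODE M21 begins these genes earlier, at 90668978 and 93520488. The end of the S100a8 stretch, with its TATAAA, therefore lies inside the GENCODE gene. Capitals mark 4 motifs, each searched on both strands, none of which shares bases with another here. The TATA box was searched as TATAAA. The motif of C/EBP factors, which act in myeloid cells, was searched as TTGCNNAA. The motif of AP-1 was searched as TGANTCA. The GC box was searched as GGGCGG.
S100a8, chr3:90668821-90669070, plus strand: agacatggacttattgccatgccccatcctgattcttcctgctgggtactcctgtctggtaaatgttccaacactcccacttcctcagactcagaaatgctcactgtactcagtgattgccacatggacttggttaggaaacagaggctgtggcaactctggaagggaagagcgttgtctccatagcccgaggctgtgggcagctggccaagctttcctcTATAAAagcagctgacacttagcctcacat
S100a9, chr3:90695722-90695971, minus strand: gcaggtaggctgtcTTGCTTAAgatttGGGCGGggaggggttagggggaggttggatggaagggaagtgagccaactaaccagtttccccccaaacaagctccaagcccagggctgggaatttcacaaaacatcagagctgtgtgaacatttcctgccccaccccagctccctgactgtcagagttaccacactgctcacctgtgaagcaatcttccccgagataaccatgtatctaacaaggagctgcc
S100a4, chr3:90603520-90603769, plus strand: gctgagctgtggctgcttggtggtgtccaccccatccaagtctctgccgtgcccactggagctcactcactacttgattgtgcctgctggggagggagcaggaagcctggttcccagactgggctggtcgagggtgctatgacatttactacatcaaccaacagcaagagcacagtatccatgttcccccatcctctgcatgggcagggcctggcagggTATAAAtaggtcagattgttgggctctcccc
S100a11, chr3:93520246-93520495, plus strand: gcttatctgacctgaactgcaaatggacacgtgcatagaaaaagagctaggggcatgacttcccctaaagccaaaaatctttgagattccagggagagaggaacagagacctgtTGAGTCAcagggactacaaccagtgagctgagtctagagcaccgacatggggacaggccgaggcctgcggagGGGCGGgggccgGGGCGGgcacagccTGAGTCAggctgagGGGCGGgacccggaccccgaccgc
S100a1 to S100a13, chr3:90514331-90514434, plus strand: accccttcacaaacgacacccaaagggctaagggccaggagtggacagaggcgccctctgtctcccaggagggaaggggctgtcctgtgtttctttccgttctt

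The letters TATAAA stood at -30 before S100a8 and at -31 before S100a4, and S100a9 had the same 6 letters beginning at its annotated start, outside the stretch shown. S100a9 also held TTGCTTAA at -236, a C/EBP motif, beside a GC box at -223. S100a11 had no TATAAA but TGAGTCA at -136 and -38 and 3 GC boxes, at -64, -52 and -24. The 104 bases between the RefSeq starts of S100a1 and S100a13 held none of the 4. The window of S100a6, which rose, held none either, while S100a16, which was not called, had TGAATCA at -192 and a GC box at -30 in 1 of its 2 windows. Among 32851 RefSeq windows of 300 bases, from 250 before a start to 50 after it, 13.6% held TATAAA, 10.8% the C/EBP motif, 7.81% the AP-1 motif and 35.7% the GC box on either strand. The windows of S100a11, S100a13 and S100a1 had 15, 14 and 11 CpG dinucleotides, against 6 for S100a6, 4 for S100a8, 2 each for S100a9 and S100a4, and 2 and 4 for the windows of S100a16, and the median window had 7. These are matches of letters and describe the windows only.

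The neutrophil pair rose together in whole liver. S100a8 had 174, 156 and 235 normalized reads in NASH liver and 41.5, 46.4 and 47.2 in chow liver. Every NASH library was above every chow library, as for 29.8% of liver genes, and the third NASH library was the highest. The log2 fold change was 2.02 ± 0.22 (SE, n = 3 each), with a 95% interval of 1.53 to 2.51 and an adjusted p of 9.27e-05 from limma. S100a9, its partner, had 248, 223 and 331 normalized reads in NASH liver and 71.2, 88.5 and 94.3 in chow liver. Again the groups did not overlap and the third NASH library was highest. Its log2 fold change was 1.64 ± 0.21 (SE, n = 3 each), with a limma adjusted p of 2.15e-04. In bulk RNA, more cells of a type and more RNA per cell cannot be told apart.

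The ratio of S100a8 to S100a9 was nearly constant among NASH livers. It was 0.704, 0.698 and 0.709 in NASH liver and 0.583, 0.524 and 0.500 in chow liver, so the groups did not overlap and S100a8 stood higher relative to S100a9 on the diet. The ratios rest on 190, 155 and 292 reads of S100a8 against 270, 222 and 412 of S100a9 in NASH liver. In chow liver they rest on 35, 43 and 46 against 60, 82 and 92. Each ratio thus carries counting error, most of all in chow liver. The ratio was not tested, because it is a score over genes chosen with results known.

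In LSEC the same pair was near the floor of detection. S100a8 had 5.80, 2.80 and 17.7 normalized reads in NASH LSEC and 11.5, 3.26 and 6.14 in chow LSEC, which are 6, 3 and 19 reads against 11, 3 and 6. S100a9 had 8.70, 1.87 and 27.9 normalized reads in NASH LSEC and 13.6, 23.9 and 12.3 in chow LSEC. The groups overlapped for both genes, and 1 NASH library, the third, held most of the NASH reads of each. The log2 fold change was 0.11 for S100a8, with an interval of -1.54 to 1.76 and a limma adjusted p of 0.941. For S100a9 it was -0.86, with an interval of -2.78 to 1.05 and a limma adjusted p of 0.549. The normalized ratio of the pooled reads was 1.26 for S100a8 (exact interval 0.682 to 2.35) and 0.782 for S100a9 (0.502 to 1.21), where intervals cover counting error only. At this depth no difference was detectable, and the intervals do not show that the pair was unchanged. In CPM, which relates recovered reads to the total of their library, S100a8 averaged 0.485 in NASH LSEC and 0.353 in chow LSEC, and in whole liver 4.18 in NASH liver and 0.744 in chow liver.

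Most neutrophil markers rose in liver, as the pair did, where 25.0% of all liver genes were called higher. Of 17 measured markers, S100a8 and S100a9 not among them, 13 rose and none fell, with a median log2 fold change of 1.60 against 0.02 over all liver genes. Lcn2, an iron-siderophore binding protein of neutrophil granules that inflamed hepatocytes also make, rose by 4.38 on the log2 scale. Csf3r, the G-CSF receptor, rose by 1.50 and Il1r2, the decoy interleukin-1 receptor, by 2.52 (limma adjusted p 3.92e-06, 3.96e-05 and 4.89e-04 for the 3 genes). The markers summed to 13627 to 18108 normalized reads in NASH liver and 1390 to 1704 in chow liver, and without Lcn2 to 1110 to 1614 in NASH liver and 698 to 1031 in chow liver. Ly6g is not analysed here. Of 7 measured monocyte markers 6 rose and none fell, including Ccr2, the chemokine receptor of inflammatory monocytes, by 3.88. Monocyte markers summed to 3060 to 3882 normalized reads in NASH liver and 730 to 857 in chow liver. The part of these cells in the rise of S100a8 and S100a9 was not tested.

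In LSEC 3 of 16 measured neutrophil markers rose and none fell: Lcn2 by 3.77, Fpr2, a formyl peptide receptor, by 1.82, and Il1r2, which had 12, 4 and 3 reads in NASH LSEC and 0 reads in each chow LSEC library. The markers summed to 1004 to 2398 normalized reads in NASH LSEC and 285 to 717 in chow LSEC, and without Lcn2 they were 678, 984 and 629 in NASH LSEC and 686, 305 and 217 in chow LSEC. The third NASH library, with the most S100a8 and S100a9 reads, thus had the lowest sum without Lcn2 among the NASH libraries. Lcn2 was highest in the second NASH library, at 1414 normalized reads against 326 and 677 in the other NASH libraries, and that library had the fewest S100a8 and S100a9 reads. Of 7 monocyte markers 2 rose in LSEC and none fell, Plac8 by 1.61 and Vcan by 2.67, and the markers summed to 1711 to 1888 normalized reads in NASH LSEC and 648 to 1137 in chow LSEC. Of all LSEC genes, 5.24% were called higher.

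**Figure D1:**
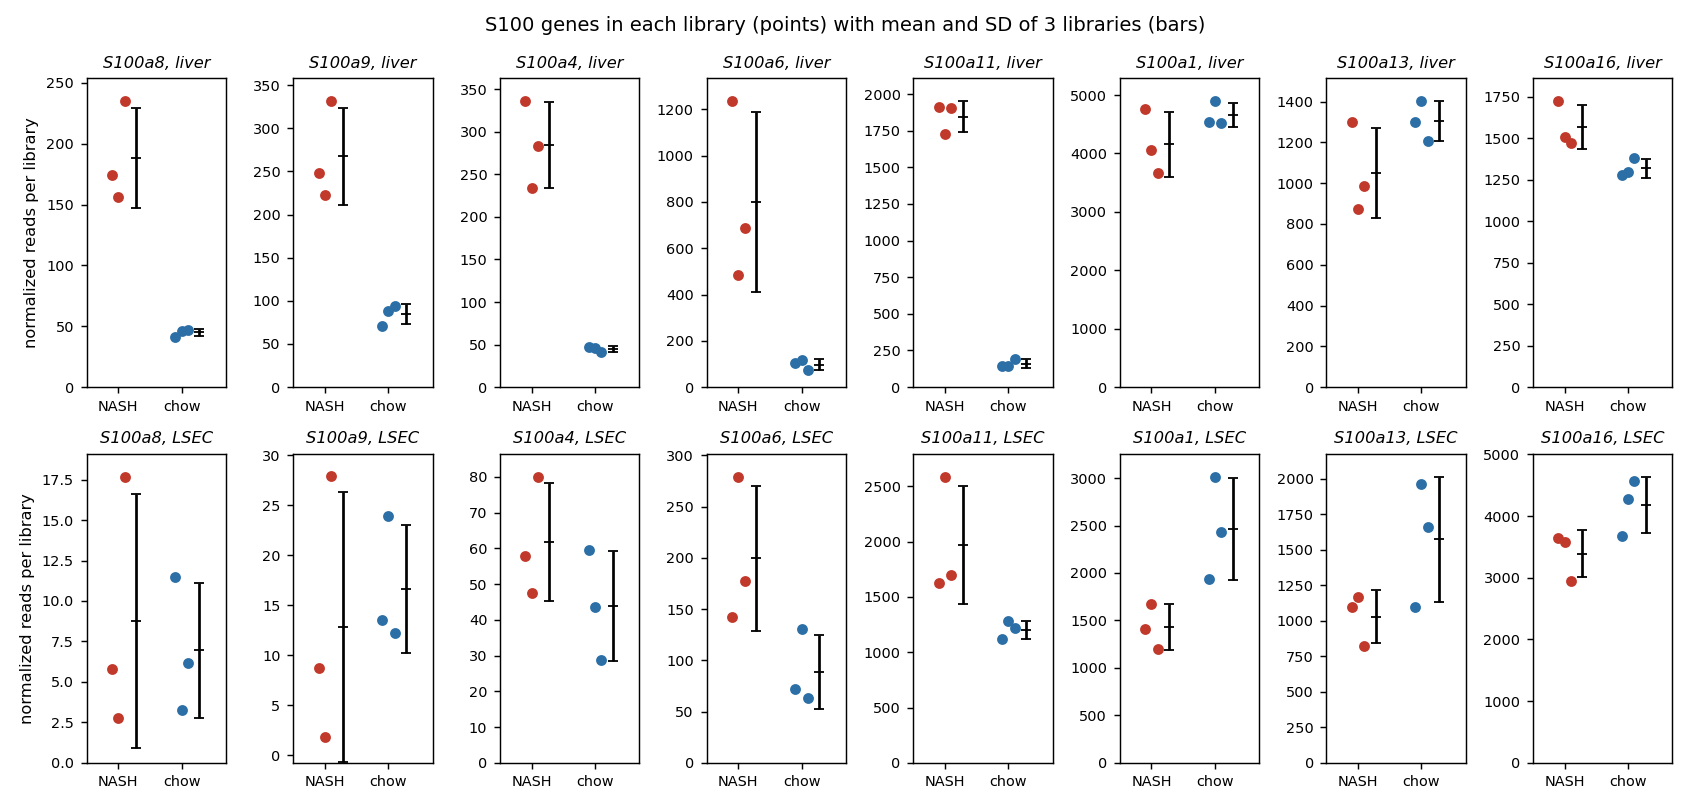
Normalized reads of the 8 S100 genes in each library (points) with the mean and SD of 3 libraries (bars), NASH to the left of chow, liver in the upper panels and LSEC in the lower. In liver the NASH points of S100a8, S100a9, S100a4, S100a6 and S100a11 lie above all chow points, as for 29.8% of liver genes. In LSEC S100a8 has at most 17.7 normalized reads and the groups overlap.

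Of the genes grouped with stroma and epithelium, S100a11, which binds annexins at membranes, changed most. It had 1909, 1725 and 1904 normalized reads in NASH liver and 141, 146 and 193 in chow liver, and no 2 libraries of different diets came near each other. Its log2 fold change was 3.53 ± 0.14 (SE, n = 3 each), with an interval of 3.22 to 3.85 and a limma adjusted p of 2.77e-07. A fold change at least as high was seen for 142 of the 16703 liver genes, or 0.850%. In LSEC S100a11 had 1624, 2585 and 1696 normalized reads in NASH LSEC and 1119, 1281 and 1216 in chow LSEC. The groups did not overlap, as for 16.5% of LSEC genes with NASH above, and 21.9% of LSEC genes had a fold change at least as high. The log2 fold change was 0.68, with an interval of 0.23 to 1.12 and a limma adjusted p of 0.0754.

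S100a6, also called calcyclin, had 1235, 483 and 686 normalized reads in NASH liver and 103, 117 and 72.8 in chow liver. The NASH libraries varied more than for the other 4 genes that rose, with a coefficient of variation of 48.6%. The lowest was still above all chow libraries, as for 29.8% of liver genes. The log2 fold change was 2.94 ± 0.31 (SE, n = 3 each), with a limma adjusted p of 8.23e-05. In LSEC S100a6 had 142, 279 and 178 normalized reads in NASH LSEC and 72.1, 131 and 63.5 in chow LSEC. The groups did not overlap, as for 16.5% of LSEC genes with NASH above. The LSEC log2 fold change was 1.18, with an interval of 0.32 to 2.03 and a limma adjusted p of 0.0946.

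S100a4, known as fibroblast-specific protein and a partner of non-muscle myosin, had 336, 234 and 283 normalized reads in NASH liver and 47.5, 46.4 and 41.0 in chow liver. The chow libraries lay close together, far under the lowest NASH library, and 29.8% of liver genes had NASH above chow without overlap. The log2 fold change was 2.62 ± 0.20 (SE, n = 3 each), with a limma adjusted p of 1.57e-05. In LSEC S100a4 had 58.0, 47.6 and 79.9 normalized reads in NASH LSEC and 59.5, 43.5 and 28.7 in chow LSEC, and the groups overlapped. The LSEC log2 fold change was 0.51, with an interval of -0.34 to 1.37 and a limma adjusted p of 0.418.

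Markers of mesenchymal cells and of bile duct epithelium also rose in liver, as did most markers of neutrophils, monocytes and macrophages. Of all liver genes, 25.0% were called higher, and 47.2% with scaling by total reads. Of 15 mesenchymal and stellate markers 12 rose and none fell (14 and none with scaling by total reads), among them the collagen genes Col1a1, Col1a2 and Col3a1 by 5.18, 3.81 and 4.28 on the log2 scale. All 12 cholangiocyte markers rose, including Spp1 (osteopontin) by 3.58, Cldn4, a tight junction protein, by 4.14 and Cftr, the chloride channel, by 3.61. The mesenchymal markers summed to 82897 to 113997 normalized reads in NASH liver and 28551 to 33281 in chow liver, and the cholangiocyte markers to 19709 to 38249 in NASH liver and 3202 to 3948 in chow liver. By library the cholangiocyte sum in NASH liver was 33361, 19709 and 38249 and the mesenchymal sum 82897, 85701 and 113997. S100a4, S100a6 and S100a11 were each highest in the first and lowest in the second NASH library, an order that neither sum followed in full. In LSEC 5 of 15 mesenchymal and 4 of 12 cholangiocyte markers rose and none fell, where 5.24% of all LSEC genes were called higher. The cholangiocyte sum was 11658, 53083 and 20332 normalized reads in NASH LSEC and 4776, 5374 and 10546 in chow LSEC, and the mesenchymal sum 97190, 59669 and 52007 in NASH LSEC and 26703, 18714 and 40510 in chow LSEC. In the second NASH library, where the cholangiocyte sum was highest, S100a6 and S100a11 were highest and S100a4 was lowest, while the mesenchymal sum was highest in the first. The part of these cells in the S100 values was not tested.

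Macrophage markers also differed, with 11 of 14 higher and 2 lower in NASH liver and 9 of 14 higher and none lower in NASH LSEC. Over all genes 25.0% were called higher and 21.0% lower in liver, and 5.24% and 2.86% in LSEC. Gpnmb rose by 6.36 in liver and 6.31 in LSEC, Itgax by 4.44 in liver, Trem2 by 3.70 and Cd5l by 2.04 in LSEC, and Marco, a scavenger receptor of resident macrophages, fell by 4.51 in liver. The macrophage sum was 78545 to 117114 normalized reads in NASH liver and 38854 to 55083 in chow liver, and 61880 to 77311 in NASH LSEC and 13016 to 36577 in chow LSEC. Of 5 platelet markers 1, Pf4, rose in liver (by 2.19) and none passed the test in LSEC, where 2 did with scaling by total reads. Their part was not tested either.

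**Figure D2:**
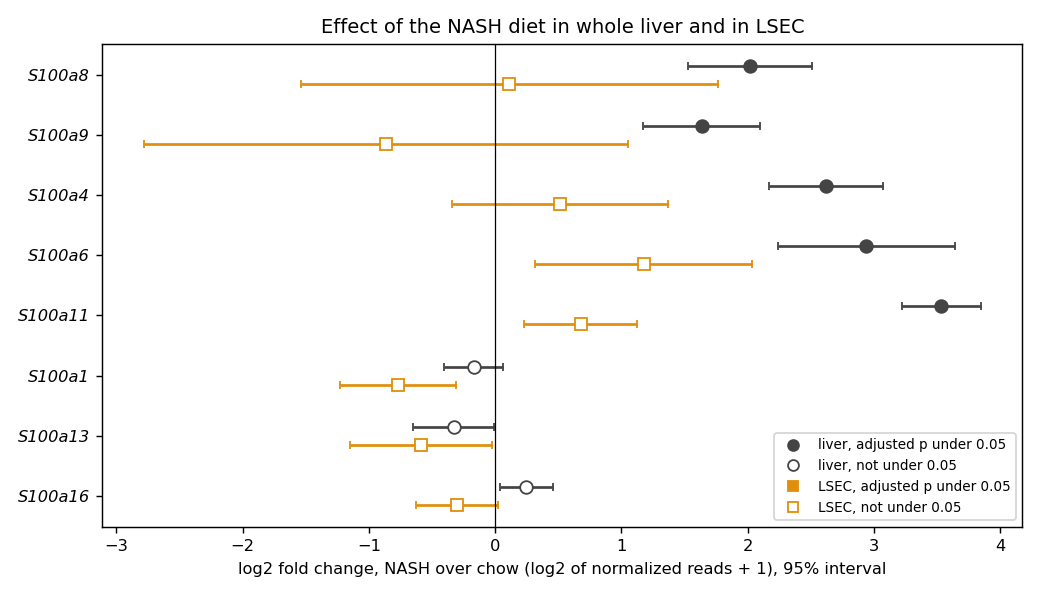
Log2 fold change of each S100 gene, NASH over chow, with its 95% interval, in whole liver (circles) and LSEC (squares). Symbols are filled where the limma adjusted p was under 0.05, as for the 5 liver values from 1.64 to 3.53, and open for the other liver values and every LSEC value.

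S100a1, which had the most normalized reads of the 8 in whole liver, did not pass the test in either tissue. It had 4758, 4058 and 3662 normalized reads in NASH liver and 4545, 4894 and 4527 in chow liver, with overlap, a log2 fold change of -0.17 (interval -0.40 to 0.06) and a limma adjusted p of 0.208. In LSEC it had 1413, 1679 and 1204 normalized reads in NASH LSEC and 1940, 3012 and 2428 in chow LSEC. The NASH libraries were below all chow libraries, as for 15.4% of LSEC genes. The LSEC log2 fold change was -0.77, with an interval of -1.23 to -0.31 and a limma adjusted p of 0.0569.

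S100a13 had 1299, 872 and 985 normalized reads in NASH liver and 1301, 1402 and 1207 in chow liver, and the first NASH library lay among the chow values. Its log2 fold change was -0.33, with an interval of -0.65 to -0.01 and a limma adjusted p of 0.0871. In LSEC it had 1098, 1170 and 820 normalized reads in NASH LSEC and 1096, 1963 and 1660 in chow LSEC, again with overlap, a log2 fold change of -0.59 and a limma adjusted p of 0.179.

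S100a16 had 1724, 1511 and 1475 normalized reads in NASH liver and 1278, 1297 and 1382 in chow liver. The NASH libraries were above the chow libraries by a small margin, as for 29.8% of liver genes, while 27.3% had NASH below. The log2 fold change was 0.25, with an interval of 0.04 to 0.46 and a limma adjusted p of 0.0548, just over the threshold. In LSEC the order was the other way, with 3645, 3578 and 2949 normalized reads in NASH LSEC and 3676, 4283 and 4573 in chow LSEC, a log2 fold change of -0.30 and a limma adjusted p of 0.220.

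These 3 genes depend on the scaling of the liver table. With libraries scaled by total reads the median over all liver genes shifted up by 0.40 on the log2 scale, with 47.2% of genes called higher and 5.41% lower, and the LSEC median by 0.14, with 7.15% called higher and 1.68% lower. S100a11 alone was then called in LSEC (0.82, limma adjusted p 0.0447). In liver S100a1 turned to 0.25 (limma adjusted p 0.0488), S100a13 to 0.09 (0.629) and S100a16 rose by 0.66 (5.31e-04), while the 5 genes called higher kept that call. Relative to the median of all genes, S100a1 and S100a13 remained below it under both scalings.

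The authors' deposited table called the same 5 liver genes higher, with adjusted p-values of 2.30e-11 or less, where 45.6% of its liver genes passed. In LSEC the authors' deposited table called S100a1 lower (adjusted p 0.00695) and S100a6 and S100a11 higher (0.0260 and 0.0166), where 17.3% of its LSEC genes passed. DESeq2 on the recovered reads likewise called 3 members in LSEC, against 16.3% of LSEC genes (44.5% of liver genes), and edgeR's quasi-likelihood test called none. At an unadjusted limma p under 0.05 there were 4 of 8 members in LSEC, S100a1, S100a6, S100a11 and S100a13, against 26.0% of all LSEC genes.

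Whether the diet effect differed between the tissues was tested gene by gene, as the liver log2 fold change minus the LSEC one, over 15766 genes in both tables. The effect was larger in liver for S100a11 by 2.86 (interval 2.35 to 3.36, adjusted p 7.27e-06), for S100a4 by 2.11 (1.20 to 3.02, adjusted p 0.00488), for S100a6 by 1.77 (0.75 to 2.79, adjusted p 0.0185) and for S100a16 by 0.55 (0.19 to 0.91, adjusted p 0.0346), each from the limma fits with a t distribution. That is 4 of 8 members, where 19.5% of all genes were called, 11.5% in that direction and 7.99% in the other. The call of S100a6 was lost without the first NASH LSEC library (1.55, adjusted p 0.0603) or the third (1.71, adjusted p 0.0628), and that of S100a16 without any of 8 of the 12 libraries. S100a4 and S100a11 kept it without any 1 of the 12.

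For the neutrophil pair the difference did not pass the test, and its interval was the widest among the 8 genes, as were the LSEC intervals of the pair. It was 1.91 for S100a8 (interval 0.23 to 3.58, adjusted p 0.105) and 2.50 for S100a9 (0.57 to 4.43, adjusted p 0.0734), from the limma fits. With scaling by total reads the difference passed for S100a9 (2.79, adjusted p 0.0435) and S100a1 (0.88, adjusted p 0.0128) and not for S100a8 (2.20, adjusted p 0.0603). Without that scaling, S100a1 differed by 0.60 (adjusted p 0.0798) and S100a13 by 0.26 (adjusted p 0.552). Whether the pair differed from the other 6 genes in how liver and LSEC responded was not tested.

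Within each library, the neutrophil pair was set against the other 6 genes as the mean log2 of S100a8 and S100a9 minus the mean log2 of the 6. This balance was -2.77, -2.43 and -2.0 in NASH liver and -2.92, -2.76 and -2.59 in chow liver, and the groups overlapped. It was -6.33, -7.91 and -4.79 in NASH LSEC and -5.43, -6.20 and -5.93 in chow LSEC, also with overlap. The mean moved by 0.35 in liver, NASH minus chow, and by -0.49 in LSEC, against SDs among NASH libraries of 0.39 and 1.56. With 1 library left out it ranged from 0.15 (without the third NASH library) to 0.54 (without the first) in liver. In LSEC it ranged from -1.27 (without the third NASH library) to 0.29 (without the second), so its sign turned, and it was -0.28 without the first chow library. The balance thus overlapped between diets in both tissues, and it was not tested. The mean of the other 6 joins unlike genes. In liver S100a4, S100a6 and S100a11 had higher fold changes than the pair, and S100a1, S100a13 and S100a16 had lower ones.

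**Figure D3:**
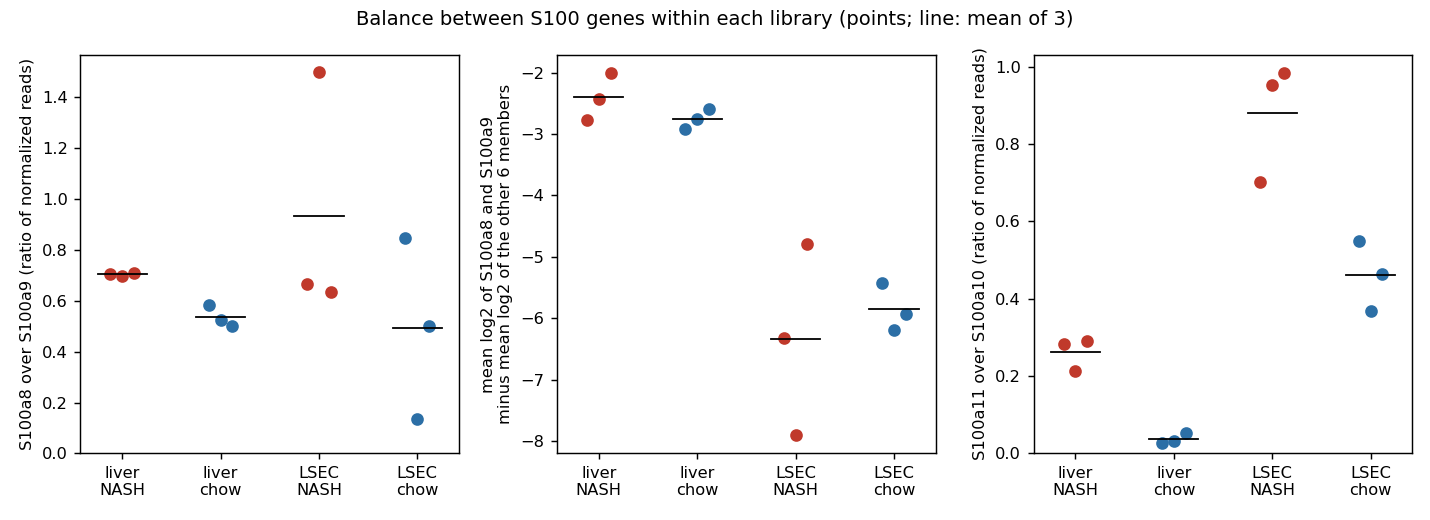
Measures of balance within each library (points, line at the mean of 3): the ratio of S100a8 to S100a9, the mean log2 of that pair minus the mean log2 of the other 6 genes, and the ratio of S100a11 to S100a10. In liver the first is 0.698 to 0.709 in NASH and 0.500 to 0.583 in chow, the second overlaps between diets, and the third is 0.214 to 0.291 in NASH and 0.0268 to 0.0531 in chow.

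Per kilobase of exon, the order of the levels changed on the diet. In NASH liver S100a1 was highest at 5994 normalized reads per kb, followed by S100a11 at 3613, S100a13 at 1471, S100a16 at 971, S100a6 at 586, S100a9 at 512, S100a4 at 487 and S100a8 at 271. The neighbours S100a6 and S100a9, and S100a9 and S100a4, overlapped. In chow liver S100a1 led at 6708 per kb, followed by S100a13 at 1823, S100a16 at 816, S100a11 at 313 and S100a9 at 162, and S100a4, S100a6 and S100a8 at 77.0, 71.3 and 64.9 overlapped one another as neighbours. S100a11 thus made up 26.0% of the summed level of the 8 genes in NASH liver and 3.12% in chow liver.

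In NASH LSEC S100a11 was highest at 3853 normalized reads per kb, above S100a16 at 2097 and S100a1 at 2063, which overlapped, and S100a13 at 1439. S100a6 at 146 and S100a4 at 106 overlapped, as did S100a9 at 24.6 and S100a8 at 12.6. In chow LSEC S100a1 at 3544, S100a16 at 2583, S100a11 at 2358 and S100a13 at 2200 per kb overlapped as neighbours, S100a4 at 75.2 and S100a6 at 64.9 did so too, and S100a9 at 31.8 and S100a8 at 10.0 were lowest. In CPM S100a11 stood at 110 in NASH LSEC and 60.8 in chow LSEC, and at 40.7 in NASH liver and 2.65 in chow liver, so its chow level was low in whole liver and not in LSEC. The 2 tissues were prepared and normalized apart, and this difference in level was not tested.

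**Figure D4:**
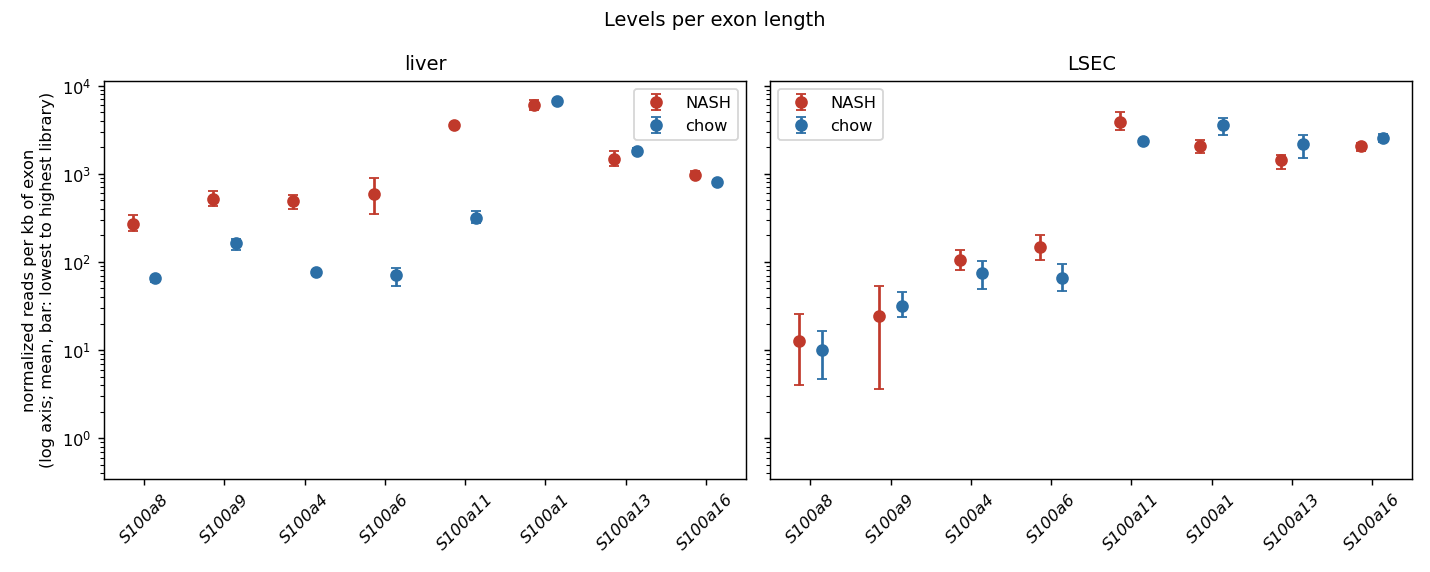
Mean normalized reads per kb of exon of each S100 gene (log axis, bars from the lowest to the highest library), NASH left of chow, in liver and in LSEC. S100a11 is at 3613 per kb in NASH liver and 313 in chow liver, and S100a8 and S100a9 lie at 31.8 per kb or less in both LSEC groups.

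Of 10 further S100 genes looked up, 4 were in the liver table. S100a10, the light chain of the annexin A2 tetramer, had 6773, 8053 and 6547 normalized reads in NASH liver and 5275, 4626 and 3629 in chow liver. It rose by 0.67 ± 0.14 (SE, n = 3 each, limma adjusted p 0.00344), less than its neighbour S100a11. Its LSEC log2 fold change was -0.26 (limma adjusted p 0.534), and the difference between tissues, 0.93, had an adjusted p of 0.0337 from the limma fits, a call lost without any 1 of 6 of the 12 libraries. The ratio of S100a11 to S100a10 was 0.282, 0.214 and 0.291 in NASH liver and 0.0268, 0.0315 and 0.0531 in chow liver, and 0.702, 0.952 and 0.984 in NASH LSEC and 0.548, 0.370 and 0.464 in chow LSEC.

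S100g, the vitamin D-dependent calbindin-D9k of gut and kidney, had 24, 23 and 26 reads in NASH liver and 0, 1 and 2 in chow liver, a normalized ratio of pooled reads of 20.1 (exact interval 6.60 to 99.6), with a limma adjusted p of 3.80e-04. S100a14, an epithelial member that lies between S100a13 and S100a16, had 16, 4 and 12 reads in NASH liver and 1, 0 and 0 in chow liver, a ratio of 26.4 (4.41 to 1075) with a limma adjusted p of 0.00435. In LSEC S100a14 had 15, 13 and 5 reads in NASH LSEC and 2, 7 and 1 in chow LSEC, with a limma adjusted p of 0.227. S100b did not pass the test in liver (limma adjusted p 0.585) or LSEC (0.769), at 17 reads or fewer in every library. S100a2, S100a3, S100a5, S100a7a, S100a7l2 and S100z are not analysed here.

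**Figure D5:**
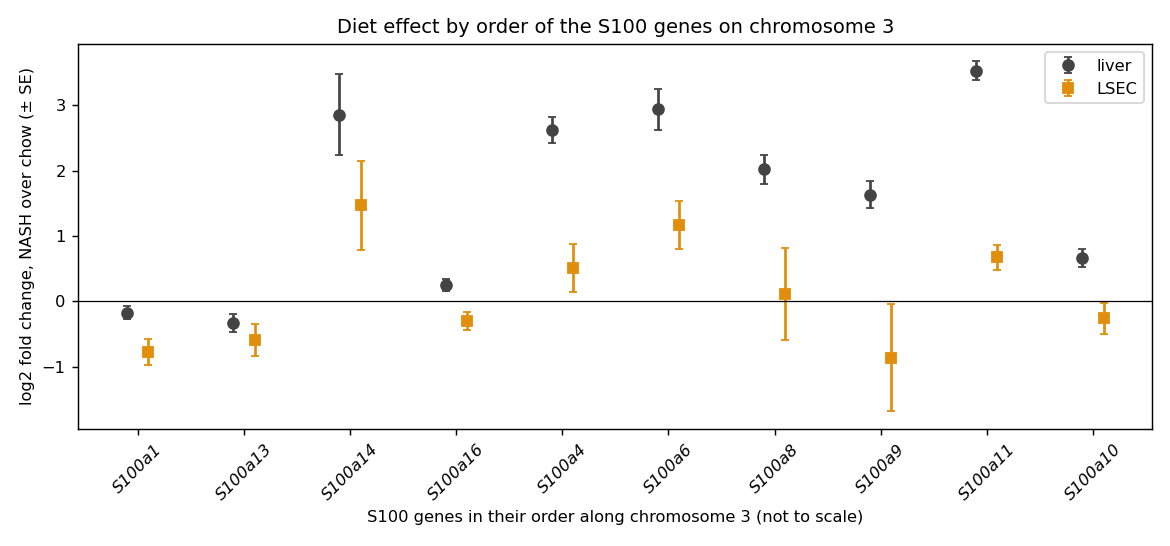
Log2 fold change (NASH over chow, bars ± SE) of the S100 genes on chromosome 3, placed by their order and not to scale, in liver (circles) and LSEC (squares). Genes that rose in liver, such as S100a14 at 2.86 and S100a4 at 2.62, stand beside genes that did not pass the test, such as S100a13 at -0.33 and S100a16 at 0.25.

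Receptors and binding partners of S100 proteins were looked at next. In liver 10 of 20 measured genes rose and 3 fell, where 25.0% of all liver genes were called higher and 21.0% lower. Their median log2 fold change was 0.54. With scaling by total reads 15 rose and none fell, where 47.2% of all liver genes were called higher and 5.41% lower. The annexins, which S100 dimers bind, led. Anxa2, a partner of S100a10, S100a11 and S100a6, rose by 3.30 on the log2 scale. It had 7729, 6799 and 8455 normalized reads in NASH liver, against 715, 779 and 835 in chow liver. Anxa5 rose by 2.04 and Anxa1, a partner of S100a11, by 2.01 (limma adjusted p 2.78e-06 and 2.29e-05). Tlr4, the receptor of S100a8 and S100a9, named for that role after its values were seen, rose by 0.88 (limma adjusted p 0.00438), with 263, 364 and 440 normalized reads in NASH liver and 183, 192 and 190 in chow liver. Ager, another receptor of the pair named in the same way, had 30, 10 and 40 reads in NASH liver and 5, 14 and 14 in chow liver and did not pass the test (limma adjusted p 0.194).

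In LSEC 1 of 20 rose and 1 fell, where 5.24% of all LSEC genes were called higher and 2.86% lower. Anxa6 rose by 0.86 (limma adjusted p 0.0222), and Fgf1, the growth factor released with S100a13, fell by 0.80 (0.0468), with 629, 648 and 930 normalized reads in NASH LSEC and 1414, 1314 and 1085 in chow LSEC. The diets did not overlap for Fgf1, as for 15.4% of LSEC genes with NASH below. With scaling by total reads 2 of the 20 rose in LSEC and none fell, so the call of Fgf1 was lost. With that scaling 7.15% of all LSEC genes were called higher and 1.68% lower. Tlr4 had 1052, 1094 and 1168 normalized reads in NASH LSEC and 936, 738 and 637 in chow LSEC, with a limma adjusted p of 0.0891. Hepatocyte markers, for comparison, fell for 6 of 10 genes in liver, among them Tat by 2.67 and Cps1 by 2.34, with none higher, and with scaling by total reads 6 fell and 1 rose. None of the 10 passed the test in LSEC. Endothelial markers fell for 7 of 12 genes in liver with 1 higher, and for 4 of 12 in LSEC with 1, Lyve1, higher. With scaling by total reads that was 5 lower and 3 higher in liver, and 2 lower and 1 higher in LSEC. Over all genes 21.0% were called lower in liver and 2.86% in LSEC, and 5.41% and 1.68% with scaling by total reads.

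How the genes varied beyond diet and tissue was described by the deviation of each library from the mean of its own group, over 12 libraries. S100a1 and S100a13 deviated together, with a Pearson r of 0.91, and S100a13 and S100a16 with 0.80. S100a1 and S100a16 had 0.74, and S100a1 with S100a6 and S100a8 with S100a9 both had 0.68, while S100a1 and S100a8 ran opposite, with -0.87. Of 10960 genes with at least 50 mean normalized reads in both tables, those closest to S100a1 were Cox5a, Mrpl30 and Atp5h (r of 0.99, 0.99 and 0.98), which encode mitochondrial proteins, and those closest to S100a13 were Hint1, Ppp2r2d and Irf2bp1 (0.99, 0.98 and 0.98). S100a4 was closest to Ahnak (0.91), a giant scaffold protein, Kbtbd11 and Srgap1, S100a6 to Rpp25l (0.94), Fmo2 and Vamp8, and S100a11 to Sox18 (0.95), an endothelial transcription factor, Fkbp14 and Tmem109. S100a8 was closest to Asap1 (0.98), S100a9 to Serac1 (0.94) and S100a16 to Clec2d (0.95). The members themselves did not have to reach the mean of 50. In LSEC S100a8 and S100a9 had 30 reads or fewer in each library, so every r of these 2 genes carries counting error. The deviations were not scaled by tissue, so the tissue with the wider spread weighs more in r. For S100a8 the coefficient of variation was 89.8% in NASH LSEC and 59.9% in chow LSEC. It was 21.9% in NASH liver and 6.80% in chow liver, so each r of S100a8 mainly reflects the LSEC libraries. The points share libraries, depth and scaling, and the correlations are descriptions without a test.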

How the data were processed

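RNA-seq of 12 mouse libraries was used, from whole liver and from LSEC. The tools named in the submitters' processing notes are STAR, HTSeq, DESeq2, FastQC and Seurat, and the build is mm10. No version is given in the sources used here. Each deposited table holds a read signal per gene and library, which is a read count divided by a factor per library, with the authors' log2 fold change, p-value and adjusted p-value. Dividing by the value of 1 read gave whole reads, within 0.01, for 100% of values. The labels name a TruSeq kit of a version that does not mark strand for liver. LSEC columns lack replicate numbers, so those libraries are numbered by position as names.

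The fit of each tissue alone used limma 3.58.1 (R 4.3.3) with a variance trend on log2(signal + 1), without a filter, because the deposited unit was not counts. Adjusted p-values are Benjamini-Hochberg values over all genes, called under 0.05. The liver minus LSEC effect was tested per gene with a two-sided t distribution at Satterthwaite degrees of freedom, using both tissues' standard errors. Fold changes on this scale understate the change of genes with few reads. Alternatives were pseudocounts of 0.1 and 10, a mean of at least 10, scaling by total reads, count tests on recovered reads (DESeq2 1.42.0 and edgeR 4.0.16), a replicate block and leaving out each library. The fits were tested on simulated data with a set spread. Of 2-fold changes, 86% were recovered in liver, 37% in LSEC and 20.3% for the liver minus LSEC effect. Of 4-fold changes it was 99%, 99% and 93.3%. Of the calls, 1.60%, 3.55% and 5.93% were false. Most simulated 2-fold changes in LSEC or between tissues were thus missed, and such misses are possible in the data too. The simulation changed 200 genes per tissue, against 7691 liver and 1319 LSEC genes called in the data. The shares recovered and false therefore need not hold for the data. Libraries of a group differed by a chi-square of 16.4 to 96.2 per degree of freedom, so none were copies. Of gene symbols, 96.1% matched GENCODE M21.

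The 8 members and the marker lists were chosen with earlier results of these data known. All members are named, with up to 3 genes per list and tissue of the smallest adjusted p among those called, or of the highest mean, and the 3 genes closest to each member by r. Genes outside that rule are said to be named after their values were seen.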

Additional observations from a re-analysis of the deposited data

Results flagged for a closer look

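The diet effect differed between liver and LSEC, by the test of the difference itself, for 4 of the 8 S100 genes and for S100a10. The liver minus LSEC difference in log2 fold change was 2.86 for S100a11, 2.11 for S100a4, 1.77 for S100a6, 0.93 for S100a10 and 0.55 for S100a16, where 19.5% of all genes were called. For S100a11, S100a4 and S100a6 the LSEC value was positive but smaller, and for S100a10 and S100a16 it was negative and did not pass the test in LSEC. With each of the 12 libraries left out in turn, S100a11 and S100a4 kept the call in 12 of 12, S100a6 in 10, S100a10 in 6 and S100a16 in 4. Whole liver and CD146-selected cells differ in cell makeup. Most cholangiocyte, mesenchymal, neutrophil, monocyte and macrophage markers were called higher in liver, as S100a4, S100a6 and S100a11 were. In LSEC 4 of 12, 5 of 15, 3 of 16, 2 of 7 and 9 of 14 were, in that order. Over all genes 25.0% were called higher in liver and 5.24% in LSEC. The median log2 fold changes of these lists in liver were 2.60, 1.45, 1.60, 2.17 and 1.14. In LSEC they were 1.81, 1.22, 1.03, 1.07 and 1.55. The part of these cell types in the S100 values was not tested.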

How the results depend on the processing

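In liver the 5 S100 calls held under every alternative run, with 5 to 7 members called when a library was left out. With the replicate block 5 members and 7447 genes were called, against 5 and 7691 without it. Whether the numbers pair the samples could not be decided. Same-numbered libraries correlated by -0.04, -0.03 and 0.18 in their deviations, and libraries of unlike number by -0.17 to 0.19. With 3 libraries per group such values cannot exclude a pairing. No paired analysis was possible for LSEC because its columns carry no replicate numbers. S100a1 turned to 0.25 and S100a13 to 0.089 in liver with scaling by total reads. In LSEC 1319 genes and 0 members were called, against 2503 genes and 3 members with DESeq2 and 1 member with scaling by total reads. Leaving out a library gave 124 to 1171 genes in LSEC and 0 to 1 members, 5863 to 7407 genes in liver, and 1840 to 3171 genes and 2 to 5 members for the difference between tissues, where a normal distribution gave 7 members. The lowest LSEC counts came without NASH library 1, 2 or 3 (474, 241 and 124) or chow library 3 (255), and the difference fell to 1865 genes without NASH LSEC library 3 and 1840 without chow LSEC library 3. Without 1 library the LSEC log2 fold change of S100a8 ranged from -0.51 to 0.64 and of S100b from -0.32 to 0.99, and the S100b difference from -0.39 to 0.98, with -0.028 at a pseudocount of 10. Without NASH liver library 1, S100a1 (-0.27, limma adjusted p 0.0422) and S100a13 (-0.49, 0.0120) were called lower. S100a16 in liver was called by edgeR (adjusted p 0.0428) and without chow liver library 3 (0.0484). The difference for S100a9 was called without NASH LSEC library 3 (3.32, adjusted p 0.0266), and for S100a8 and S100a9 at a pseudocount of 10 (adjusted p 0.00706 and 0.0168). Scaling by total reads called 6 members for the difference, S100a1 and S100a9 added, and S100a1 was also called without chow LSEC library 1 (0.76, adjusted p 0.0301). The cause of these shifts was not tested. LSEC libraries have fewer reads than liver libraries, and S100a8 and S100a9 there had 30 reads or fewer in each library.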
